A study of Mus musculus with 18 samples.

Results

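The difference in tumor effect between C26 and KPP cachexia was measured in tibialis anterior (TA) muscle: per gene, the log2 change with tumor in C26 mice minus the log2 change with tumor in KPP mice. It rests on 12 of the 18 samples of the series and on 126 of the 254 genes on its panel. A gene was used when it reached a deposited signal of 20 in at least 3 of the 6 samples of C26 and in at least 3 of the 6 of KPP. The 6 housekeeping genes and the control probes were left out. The study profiled muscle RNA of male mice in cancer cachexia, the wasting that many tumors bring about in muscle and fat. RNA (100 ng per sample) was hybridized to the nCounter mouse inflammation panel, which counts color-coded probes bound to transcripts without amplification. The first group was C26 tumor-bearing muscle, from CD2F1 mice given cells of the C26 colon carcinoma line. C26 controls were CD2F1 mice without tumor. KPP tumor-bearing muscle came from C57/B6 mice of the KPP model, in which tamoxifen (1 mg per 10 g, intraperitoneal) induces the tumor. KPP controls were C57/B6 mice without tumor, and the labels do not say whether they received tamoxifen. Each group held 3 samples, lettered A to C. Strain, tumor, and how the tumor was started all differ between the models, so their parts in a difference cannot be told apart.

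Interleukin 6 binds its receptor Il6ra and, through gp130 and JAK kinases, activates the transcription factor STAT3, a pathway tied to muscle loss in cachexia. Interleukin 1 receptors and most Toll-like receptors signal through the adaptor MyD88 to NF-kB, whose RelA subunit switches on inflammatory genes, and to MAP kinases, among them p38, which Map2k6 activates. Complement is a cascade of plasma proteins that ends in a membrane pore. Muscle holds fibers, fibroblasts, vessel cells, resident macrophages and some fat, each with its own share of these transcripts.

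Counts behind the gene values ranged from 29748 to 50792 in C26 tumor-bearing samples, 75594 to 95062 in C26 controls, 154696 to 402922 in KPP tumor-bearing samples and 61232 to 218643 in KPP controls. A signal of 100 carried a counting error of 7.76% to 17.96%, and a signal of 20, the filter's minimum, 17.36% to 40.15%. Both upper ends belonged to KPP control B, with 61232 counts. All errors of this kind cover counting only. Each model had been scaled on its own (geometric mean of the housekeeping genes 532.0 in C26 samples and 1769.1 in KPP samples, to 1 decimal), so levels are compared within a model and not between models. No gene of the tumor lines or of the KPP alleles is on the panel, so the labels of tumor status were not checked against the data. The muscle fiber markers Myl2, Hspb2 and Mef2c_Mm summed to 3206 to 4118 in C26 tumor-bearing samples and 1214 to 2717 in C26 controls, and to 9112 to 9914 in KPP tumor-bearing samples and 9221 to 11774 in KPP controls. Sums of the 4 neutrophil markers stayed between 4.48 and 98.3 and those of the 5 T cell markers between 5.00 and 42.7 over the 12 samples. A few libraries stood apart. C26 control A, with Pearson correlations of 0.80 and 0.72 to the other controls, held the highest adipsin (Cfd) signal and the highest macrophage marker sum of its model. C26 control C had the highest Myc and Il6ra of the C26 samples, and KPP tumor-bearing sample B the highest Il6ra, Myc, Maff and Tlr4 of the KPP samples. The median SD of a gene was 0.25 in C26 tumor-bearing samples, 0.53 in C26 controls, 0.42 in KPP tumor-bearing samples and 0.21 in KPP controls, on the log2(value + 1) scale. No label states that samples come from separate mice, so p-values measure the spread between these samples.

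In the fit, 15 of the 126 genes had a tumor effect in C26 that differed from that in KPP at an adjusted p under 0.05 (11.9% of genes tested, limma with Benjamini-Hochberg adjustment), and 34 had an unadjusted p under 0.05. The difference was positive for 4 genes (3.17%), namely Map2k6, Irf5, C7 and Nos2. It was negative for 11 (8.73%): C4a, Il6ra, Myc, Cfd, Tlr4, Maff, Myd88, Stat3, Bcl2l1, Cebpb and Rela. The split depended on the scaling. It was 14 positive and 10 negative when Gapdh and Pgk1 were not used as housekeeping genes, 8 and 10 by median centring, and 9 and 8 by quantile normalization within each model. Left out one at a time, the libraries moved the count by over 1.5 times in 6 runs: to 32 without C26 control A, 5 without C26 tumor-bearing sample B, 5 without KPP control B, 7 without C26 tumor-bearing sample C, 8 without KPP tumor-bearing sample B and 9 without C26 tumor-bearing sample A.

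The C26 effect alone passed the test for 26 genes (20.6%), 6 of them higher (4.76%) and 20 lower (15.9%) in tumor-bearing muscle, and 48 had an unadjusted p under 0.05. With Gapdh and Pgk1 left out of the scaling the split became 22 higher and 12 lower, by median centring 24 and 12, and by quantile normalization 22 and 12. The KPP effect alone passed for 3 genes (2.38%): Flt1, higher in tumor-bearing muscle, and C7 and Map2k6, both lower. In KPP 25 genes had an unadjusted p under 0.05. Of the 15 genes with a called difference, 9 were also called in C26, 2 in KPP and 5 in neither model. Map2k6 was the 1 gene called in both, in opposite directions.

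For 13 of the 15 genes the 2 effects had opposite signs, while for C4a and Cfd both were negative. The KPP effect passed for neither of them, and that of C4a was -0.14 (adjusted p = 0.981). Over all 126 genes 65 had opposite signs (51.6%): 18 were higher in C26 and lower in KPP, and 47 lower in C26 and higher in KPP. Another 24 were higher in both and 37 lower in both. The Pearson correlation of the 2 effects across genes was 0.08, a description over genes that share libraries. Tumor-bearing and control samples did not overlap in C26 for all 15 called genes, against 54 of all 126 (42.9%), and in KPP for 9, against 40 of all 126 (31.7%). Without overlap in either model and in opposite directions stood 10 of the 126 genes (7.94%), of which 8 were called: C7, Map2k6, Il6ra, Myc, Cebpb, Myd88, Bcl2l1 and Maff. Since the difference was tested on the same values, these overlaps describe the calls and add no evidence. For Nos2, Myd88 and Maff the filter itself fixed the lack of overlap in C26. The median difference over all genes was -0.37, from median effects of -0.28 in C26 and 0.05 in KPP. It turned to 0.24 without Gapdh and Pgk1, to 0.12 with median centring and to 0.10 with quantile normalization. None of the 15 called differences changed sign under any of these.

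**Figure D1:**
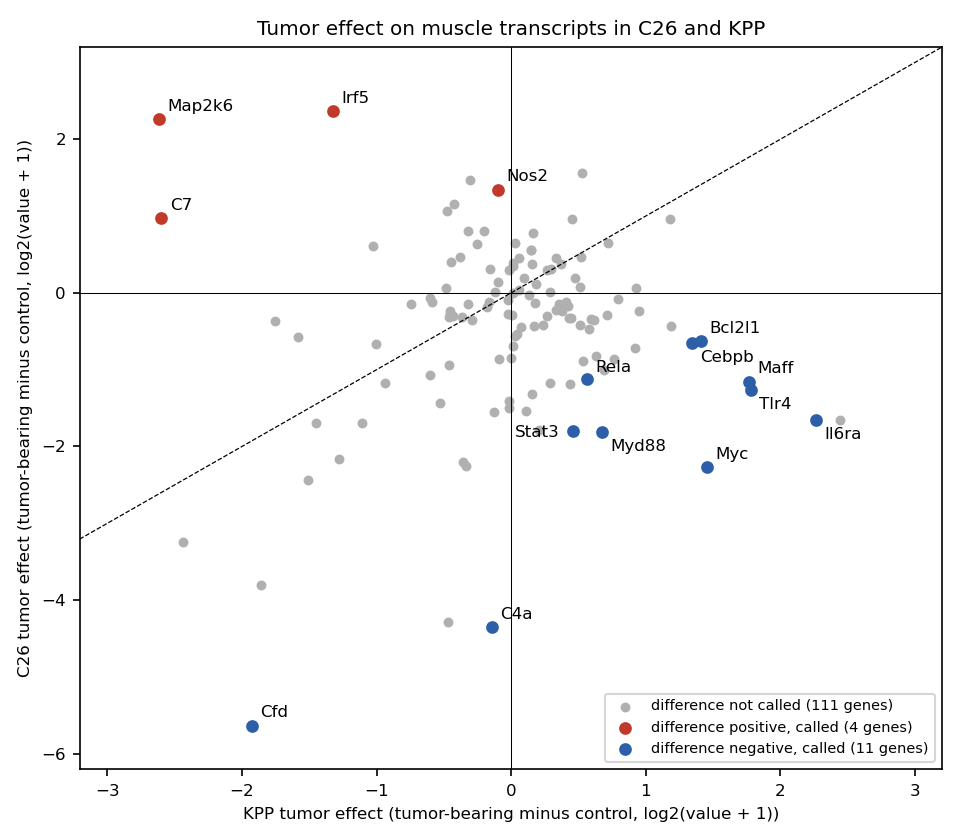
Tumor effect in C26 (y axis) against tumor effect in KPP (x axis) for 126 genes, both as tumor-bearing minus control on the log2(value + 1) scale. Red and blue points are the 4 positive and 11 negative called differences, and the dashed line marks equal effects. Map2k6, C7 and Irf5 lie at the upper left and the IL-6, Toll-like receptor and stress genes at the lower right.

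Map2k6, the kinase that phosphorylates and activates p38 MAP kinases, had the highest difference of all. Its signal was 393, 382 and 401 in C26 tumor-bearing samples A, B and C, against 119, 80.9 and 54.9 in C26 controls. In KPP muscle the signal was 416, 79.5 and 166 in KPP tumor-bearing samples, against 1098, 1088 and 1071 in KPP controls. The groups did not overlap in either model: all 3 C26 tumor-bearing samples stood above every C26 control, and all 3 KPP tumor-bearing samples below every KPP control. On the log2 scale the tumor effect of Map2k6 was 2.26 in C26 (adjusted p = 0.0152) and -2.61 in KPP (adjusted p = 0.0178), and the difference was 4.88 (SE 0.69, 95% interval 3.34 to 6.41, adjusted p = 0.00176). It passed in every other setting and in all 12 runs without 1 sample, where it was 4.31 to 5.49. In bulk muscle, fewer cells of a type and less RNA per cell cannot be told apart, here and for every gene that follows.

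The other 15 tested genes of the MAP kinase cascade (16 of 19 panel members passed the filter) had differences between -0.75 and 1.53, and none passed. The list's median difference was 0.03, against -0.37 over all genes. It was 0.65 without Gapdh and Pgk1, 0.53 with median centring and 0.60 with quantile normalization. Map3k7, the kinase TAK1, then also had a positive called difference under each of the 3, Rps6ka5 without Gapdh and Pgk1 and Mapkapk2 with quantile normalization. Mapk14, which encodes p38 alpha, the kinase that Map2k6 acts on, stood at 0.06, from -0.31 in C26 and -0.37 in KPP. Mapkapk2, a kinase that p38 activates, stood at 0.42 and Map2k4, a kinase upstream of JNK, at 0.31. Rps6ka5, a chromatin kinase that p38 and ERK activate, had the next highest difference of the list at 1.53 (SE 0.49, adjusted p = 0.0606).

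Of the 6 genes of the IL-1 and IL-6 reception list, all tested, 4 had a negative called difference (Il6ra, Stat3, Cebpb and Myd88) and none a positive one, against 8.73% and 3.17% of all genes tested. Myd88 passed the filter in C26 through the controls alone, where it was high, and of the other 5 genes 3 were called. Without Gapdh and Pgk1 the scaling added a positive call, Il1rap, and quantile normalization ended that of Cebpb. The list's median difference was -2.13, from -1.49 in C26 and 0.57 in KPP; without Gapdh and Pgk1 it was -1.52. Il6ra encodes the receptor chain that binds interleukin 6. Its signal was 27.1, 32.4 and 41.7 in C26 tumor-bearing samples A, B and C, against 77.2, 74.2 and 213 in C26 controls. It was 242, 873 and 230.4 in KPP tumor-bearing samples, against 110.0, 47.1 and 81.3 in KPP controls. C26 tumor-bearing samples were all below and KPP tumor-bearing samples all above their controls, with sample B at least 3 times the other tumor-bearing samples of KPP and C26 control C well above the other C26 controls. The effects of tumor on Il6ra were -1.66 in C26 (adjusted p = 0.0601) and 2.27 in KPP (adjusted p = 0.051), which gave a difference of -3.93 (SE 0.81, 95% interval -5.71 to -2.14, adjusted p = 0.0161). Without those 2 libraries together the difference was -2.80 (adjusted p = 0.0097), and it passed in all 12 runs without 1 sample. The KPP effect of Il6ra was called higher with tumor under each of the 3 other scalings, and its C26 effect was called under none.

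Stat3, the transcription factor that the IL-6 receptor complex switches on, had a called effect in C26 as well. Its signal was 244, 279 and 251 in C26 tumor-bearing samples A, B and C, against 787, 877 and 1048 in C26 controls. In KPP muscle the signal was 1462, 2425 and 1314 in KPP tumor-bearing samples, against 1187, 1319.8 and 1140.0 in KPP controls. Every C26 tumor-bearing sample lay below every C26 control by a wide gap, while in KPP sample C overlapped the controls. Stat3 had log2 effects of -1.80 in C26 (adjusted p = 0.00105) and 0.46 in KPP (adjusted p = 0.293), with a difference of -2.26 (SE 0.34, 95% interval -3.01 to -1.50, adjusted p = 0.00198). The call held in every other setting and without any 1 sample (-2.43 to -1.99). Cebpb, the C/EBP beta transcription factor that IL-6 induces in the liver's acute phase, was 761, 766 and 699 in C26 tumor-bearing samples A, B and C, against 809.6, 1200.5 and 1637 in C26 controls. Values in the KPP model were 2663, 6244 and 4003 in KPP tumor-bearing samples, against 1660.5, 1519.5 and 1613 in KPP controls. Neither model showed overlap, and the directions were opposite. Log2 tumor effects of Cebpb were -0.65 in C26 (adjusted p = 0.151) and 1.34 in KPP (adjusted p = 0.051), and the difference came to -2.00 (SE 0.46, 95% interval -3.01 to -0.99, adjusted p = 0.0219). Neither effect passed alone. Under each of the 3 other scalings, however, the KPP effect of Cebpb was called, higher with tumor. The difference missed the threshold with quantile normalization (-1.39, adjusted p = 0.060) and without C26 tumor-bearing sample B, C26 tumor-bearing sample C or KPP control B (adjusted p over the 12 runs 0.00531 to 0.056, difference -2.30 to -1.69). Of the other list members Il1r1, the signaling receptor for interleukin 1, was lower in C26 tumor-bearing samples (-1.31, adjusted p = 0.0483), with an effect of 0.15 in KPP and a difference that did not pass (-1.46, adjusted p = 0.147). Its C26 effect passed under none of the 3 other scalings. Its partner Il1rap had a difference of 0.46.

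Start site windows of 5 called genes are shown: the 4 called members of the IL-1 and IL-6 reception list, whose differences were negative, and C7 as a gene with a positive one. They are Il6ra (chr3:89913147-89913446, minus strand), Stat3 (chr11:100939491-100939790, minus strand), Cebpb (chr2:167688665-167688964, plus strand), Myd88 (chr9:119339969-119340268, minus strand) and C7 (chr15:5063724-5064023, minus strand). They come from RefSeq on GRCm38.p6, from 250 bases before to 50 bases after an annotated start, 5′ to 3′. Capitals mark matches on either strand to the STAT motif TTCNNNGAA or the C/EBP motif TTNNGNAA, which do not overlap each other here, and the Cebpb window holds neither.
Il6ra: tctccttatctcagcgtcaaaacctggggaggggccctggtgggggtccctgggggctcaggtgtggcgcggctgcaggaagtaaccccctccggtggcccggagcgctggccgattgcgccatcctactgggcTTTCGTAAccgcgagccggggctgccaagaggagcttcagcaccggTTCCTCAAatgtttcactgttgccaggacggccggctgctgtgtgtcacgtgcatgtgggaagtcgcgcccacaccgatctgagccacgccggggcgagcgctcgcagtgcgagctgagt
Stat3: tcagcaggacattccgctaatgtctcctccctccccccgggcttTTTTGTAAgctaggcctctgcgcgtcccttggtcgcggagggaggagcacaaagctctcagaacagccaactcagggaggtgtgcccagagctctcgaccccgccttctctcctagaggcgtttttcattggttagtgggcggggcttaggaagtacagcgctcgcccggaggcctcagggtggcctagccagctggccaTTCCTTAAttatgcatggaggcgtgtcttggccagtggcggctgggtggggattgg
Cebpb: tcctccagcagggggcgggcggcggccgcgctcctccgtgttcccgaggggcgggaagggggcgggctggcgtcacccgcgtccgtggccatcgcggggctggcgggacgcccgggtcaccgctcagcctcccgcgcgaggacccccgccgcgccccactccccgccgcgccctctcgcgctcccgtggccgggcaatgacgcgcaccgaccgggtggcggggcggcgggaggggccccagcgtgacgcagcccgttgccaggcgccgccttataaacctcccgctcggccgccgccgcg
Myd88: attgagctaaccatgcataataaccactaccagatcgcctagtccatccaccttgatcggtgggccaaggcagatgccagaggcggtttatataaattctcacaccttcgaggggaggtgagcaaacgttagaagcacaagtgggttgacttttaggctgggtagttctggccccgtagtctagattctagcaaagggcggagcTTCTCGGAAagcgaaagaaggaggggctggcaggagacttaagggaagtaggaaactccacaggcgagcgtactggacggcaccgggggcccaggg
C7: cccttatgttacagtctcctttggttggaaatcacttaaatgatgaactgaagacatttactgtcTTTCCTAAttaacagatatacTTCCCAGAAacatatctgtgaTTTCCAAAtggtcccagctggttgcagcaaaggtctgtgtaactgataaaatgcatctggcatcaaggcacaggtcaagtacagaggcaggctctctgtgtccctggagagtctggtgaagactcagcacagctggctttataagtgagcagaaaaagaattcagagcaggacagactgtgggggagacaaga
RefSeq windows were at hand for 11 of the 15 called genes (17 windows, since some genes have several starts). The STAT motif lay in 3 of these windows (Myd88, C7 and 1 of Maff), against 8.3% of 32851 mouse windows of the same length. The C/EBP motif lay in 11 of the 17, against 40.7%. Starts of the same gene were counted separately, and every window of Bcl2l1 and of Map2k6 held the C/EBP motif. Enrichment was not tested. Searched likewise, CACGTG (E-box) lay in 2, against 7.15%, the NF-kB motif in 1, against 5.8%, and TGANTCA (AP-1) in 1, against 7.81%. A match is a run of letters and no evidence of binding.

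Tlr4, the receptor for bacterial lipopolysaccharide, and Myd88, the adaptor below it, were 2 of the 4 Toll-like receptor genes that passed the filter (12 on the panel), and both had a negative called difference, against 8.73% of all genes tested. Myd88 passed the filter in C26 through the controls alone, where it was high, and of the other 3 genes 1 was called. Myd88 signal was 19.4, 18.9 and 17.7 in C26 tumor-bearing samples A, B and C, against 109, 32.4 and 87.6 in C26 controls. It was 121, 247.6 and 150.2 in KPP tumor-bearing samples, against 90.7, 108 and 111 in KPP controls. All 3 C26 tumor-bearing samples were under 20, so a lower C26 value was built into the way Myd88 passed the filter. For Myd88 the fit gave log2 effects of -1.81 in C26 (adjusted p = 0.0171) and 0.67 in KPP (adjusted p = 0.356) and a difference of -2.48 (SE 0.58, 95% interval -3.77 to -1.20, adjusted p = 0.022). The call was lost without C26 tumor-bearing sample B or C, KPP control B or KPP tumor-bearing sample B (adjusted p over the 12 runs 0.00331 to 0.0564, difference -3.01 to -2.14).

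Tlr4 was 37.5, 43.6 and 65.6 in C26 tumor-bearing samples A, B and C, against 118, 89.3 and 147 in C26 controls. In KPP it was 131, 1071 and 603 in KPP tumor-bearing samples, against 157, 102 and 129 in KPP controls. KPP samples B and C stood above every KPP control, and sample A lay among the controls. On the log2 scale the tumor effect of Tlr4 was -1.27 in C26 (adjusted p = 0.151) and 1.78 in KPP (adjusted p = 0.158), and the difference was -3.04 (SE 0.87, 95% interval -4.98 to -1.11, adjusted p = 0.0458). Of the 15 calls it was kept in the fewest runs without 1 sample: it held in 2 of the 12 runs without 1 sample, those without C26 control A and without KPP tumor-bearing sample A, with differences of -3.91 to -2.40 and adjusted p of 0.000797 to 0.112. It was also lost with a pseudocount of 20 and with no filter. The other 2 genes, Tlr6 (-0.87), which pairs with Tlr2, and Tollip (-0.93), an inhibitor of this signaling, did not pass. The median of the 4 was -1.71, and -0.93 without Myd88.

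Rela, the NF-kB subunit that carries the transactivation domain, was 68.7, 69.5 and 72.2 in C26 tumor-bearing samples A, B and C, against 117.5, 144.5 and 212 in C26 controls. Values in the KPP model were 328, 772 and 489 in KPP tumor-bearing samples, against 315, 379 and 322 in KPP controls. C26 tumor-bearing samples lay below all C26 controls and close to each other, while KPP sample A lay among the controls. The effects of tumor on Rela were -1.12 in C26 (adjusted p = 0.0312) and 0.56 in KPP (adjusted p = 0.304), which gave a difference of -1.68 (SE 0.44, 95% interval -2.65 to -0.71, adjusted p = 0.0297). The negative sign held in every setting, but the difference missed the threshold with no filter, without Gapdh and Pgk1 (-1.07, adjusted p = 0.063), with median centring and with quantile normalization. Of the runs without 1 sample, it held in those without C26 control A, C26 control B or KPP tumor-bearing sample A and was lost in the other 9 (adjusted p 0.00853 to 0.078, difference -1.98 to -1.36). Of 9 tested NF-kB and TNF receptor adaptor genes (15 on the panel) Rela was the 1 call, near the 11.9% called of all genes tested. Relb, a subunit of the alternative NF-kB pathway, and Traf2, an adaptor of TNF receptors, were lower with tumor in C26 (-1.43 and -1.07), with KPP effects of -0.53 and -0.60 and differences of -0.90 and -0.47 that did not pass. Ripk2, the kinase below NOD receptors, was next to the threshold (-1.42, adjusted p = 0.0505), and Nfkb1, another subunit, stood at -0.56. The list's median was -0.47, and it turned to 0.13, 0.02 and 0.09 under the 3 other scalings, where the calls of Rela in the difference and of Rela, Relb and Traf2 in C26 were all lost. Birc2 was instead called higher with tumor in C26 under each of the 3. Tnfaip3 had a positive called difference without Gapdh and Pgk1.

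Beside these receptor and adaptor genes, the 10 macrophage and monocyte markers summed to 363 to 741 in C26 tumor-bearing samples and 929 to 4326 in C26 controls, without overlap. In KPP the sums overlapped, at 1139 to 2818 in tumor-bearing samples and 1494 to 2603 in controls. All 8 tested markers of the list had negative differences, from -1.99 to -1.39 with a median of -1.63, and none passed. Of all 126 genes 80 had a negative difference. C1qa and C1qb, which encode chains of complement C1q and are made by macrophages, were lower with tumor in C26 (-2.20 and -2.25), as was Tyrobp, an adaptor of myeloid receptors (-1.55). KPP effects of the 3 were -0.36, -0.34 and -0.13. The C26 effect of Tyrobp passed under none of the 3 other scalings, while those of C1qa and C1qb passed under each. None of the 10 markers was at 1 or less in all 12 samples, and the part of these cells in the differences above was not tested.

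**Figure D2:**
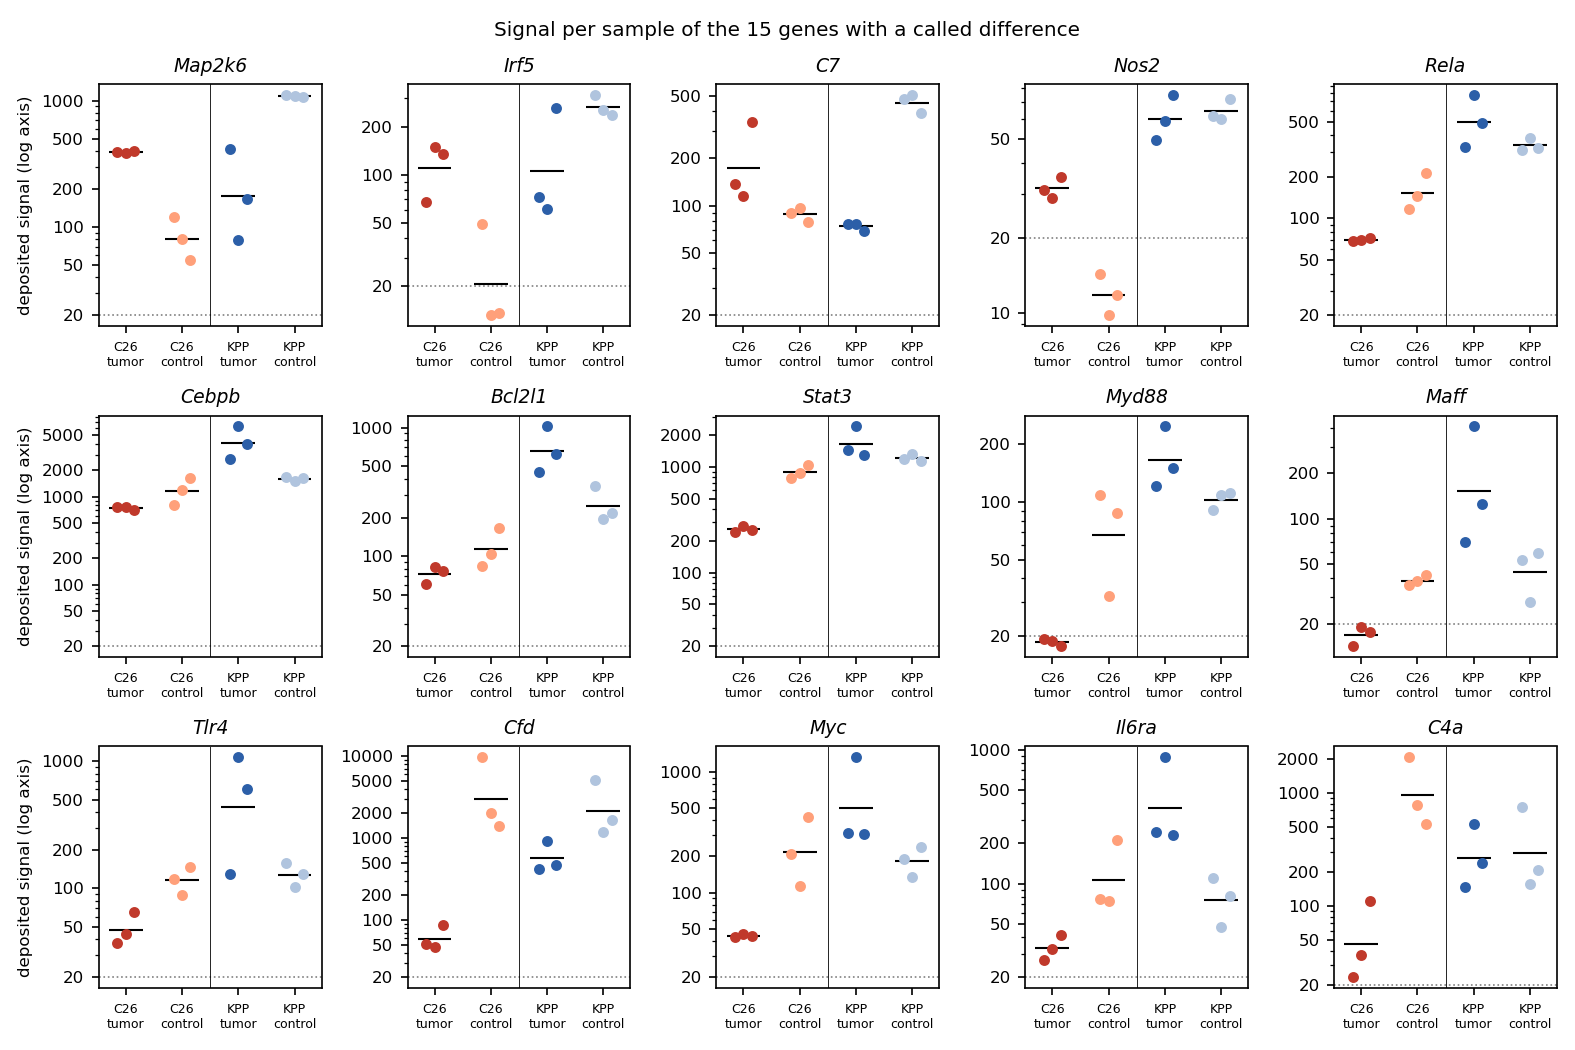
Deposited signal (log axis) of the 15 genes in each sample, with C26 tumor-bearing, C26 control, KPP tumor-bearing and KPP control samples from left to right and black bars at the geometric mean. The dotted line is the filter's minimum of 20. Map2k6 and C7 are higher with tumor in C26 and lower in KPP, Il6ra, Myc and Maff the reverse. The 2 models were scaled apart, so levels are read within a model.

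Among 10 tested immediate early and stress transcription factors (12 on the panel), Myc, Maff and Cebpb had negative called differences, against 8.73% of all genes tested. Maff passed the filter in C26 through the controls alone, where it was high. Of the other 9 genes 2 were called, with a median difference of -1.05. Positive calls came with other scalings: Ddit3 and Nr3c1, the glucocorticoid receptor, without Gapdh and Pgk1, and Nr3c1 with quantile normalization, which also ended the call of Cebpb. The list's median was -1.12, from -0.36 in C26 and 0.75 in KPP, and -0.43 without KPP tumor-bearing sample B. Under the 3 other scalings it was -0.51, -0.63 and -0.56. Myc, a transcription factor of growth and ribosome production, was 42.7, 45.9 and 43.9 in C26 tumor-bearing samples A, B and C, against 211, 114 and 423 in C26 controls. In KPP it was 314, 1319 and 309.5 in KPP tumor-bearing samples, against 192, 134 and 240.1 in KPP controls. Values of the 3 C26 tumor-bearing samples were nearly equal and under every control, and KPP sample B stood far above the other 2 of its group. Myc had log2 effects of -2.27 in C26 (adjusted p = 0.0268) and 1.45 in KPP (adjusted p = 0.216), with a difference of -3.72 (SE 0.83, 95% interval -5.55 to -1.90, adjusted p = 0.0209). Without C26 tumor-bearing sample B or KPP control B the adjusted p passed the threshold no longer (range over the 12 runs 0.0101 to 0.0519, difference -4.19 to -3.03), and without C26 control C and KPP tumor-bearing sample B together the difference was -2.55 (adjusted p = 0.0097).

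Maff, a small Maf protein that pairs with NRF2 on antioxidant genes, was 14.2, 18.9 and 17.7 in C26 tumor-bearing samples A, B and C, against 36.1, 38.2 and 41.9 in C26 controls. Values in the KPP model were 69.8, 409.6 and 126 in KPP tumor-bearing samples, against 52.9, 27.8 and 59.4 in KPP controls. As with Myd88, the 3 C26 tumor-bearing samples were under 20 and the gene passed the C26 filter through the controls alone. The groups did not overlap in either model. Log2 tumor effects of Maff were -1.16 in C26 (adjusted p = 0.135) and 1.77 in KPP (adjusted p = 0.103), and the difference came to -2.92 (SE 0.75, 95% interval -4.59 to -1.26, adjusted p = 0.0297). The difference passed in 6 of 12 runs without 1 sample (-3.48 to -2.22), being lost without C26 control C, C26 tumor-bearing sample A, B or C, KPP control B or KPP tumor-bearing sample C (adjusted p 0.00531 to 0.0847). A pseudocount of 20 or no filter also ended the call. Mafk, another small Maf, stood at -1.62, Nfe2l2, which encodes NRF2, at -0.93 (adjusted p = 0.0606) and Keap1, which holds NRF2 back, at -0.97. Fos and Jun, the partners of AP-1, stood at -1.19 and -1.64. Ddit3, a factor of the endoplasmic reticulum stress response, leaned the other way at 1.78 (SE 0.73, adjusted p = 0.147).

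Bcl2l1, which encodes the survival protein Bcl-xL, belongs to none of the lists. Its signal was 60.9, 83.0 and 76.5 in C26 tumor-bearing samples A, B and C, against 83.6, 103.5 and 167 in C26 controls. In KPP muscle the signal was 449, 1019 and 618 in KPP tumor-bearing samples, against 353, 195 and 217 in KPP controls. The groups did not overlap in either model, although C26 tumor-bearing sample B and C26 control A differed by less than 1 signal unit. For Bcl2l1 the fit gave log2 effects of -0.63 in C26 (adjusted p = 0.227) and 1.41 in KPP (adjusted p = 0.051) and a difference of -2.04 (SE 0.51, 95% interval -3.17 to -0.90, adjusted p = 0.0297). Neither effect passed alone. The call held in 4 of the 12 runs without 1 sample, those without C26 control A, C26 control B, KPP control A or KPP tumor-bearing sample A (adjusted p over the 12 0.0119 to 0.0847, difference -2.31 to -1.72), and it was lost with no filter and with quantile normalization.

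Nos2, the inducible nitric oxide synthase, was 31.0, 29.0 and 35.1 in C26 tumor-bearing samples A, B and C, against 14.3, 9.79 and 11.8 in C26 controls. In KPP it was 49.5, 59.0 and 74.4 in KPP tumor-bearing samples, against 61.7, 60.0 and 72.2 in KPP controls. The 3 C26 controls were under 20, so Nos2 passed the C26 filter through the tumor-bearing samples alone, and in KPP the groups overlapped. On the log2 scale the tumor effect of Nos2 was 1.34 in C26 (adjusted p = 0.00297) and -0.10 in KPP (adjusted p = 0.849), and the difference was 1.44 (SE 0.30, 95% interval 0.78 to 2.11, adjusted p = 0.0161). No single sample ended the call (1.31 to 1.59), but it was lost with a pseudocount of 20 (0.77, adjusted p = 0.0565) and with values under 20 set to 20 (0.73, adjusted p = 0.107). Among 6 tested genes of the NRF2 and oxidative stress list (7 on the panel), Nos2 had a positive and Maff a negative called difference. Of all genes tested 11.9% were called. Nos2 and Maff each passed the C26 filter through 1 group alone, and the 4 other tested genes did not pass the test. The list's median was -0.95, with or without Nos2 and Maff, and -0.34, -0.46 and -0.45 under the 3 other scalings.

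**Figure D3:**
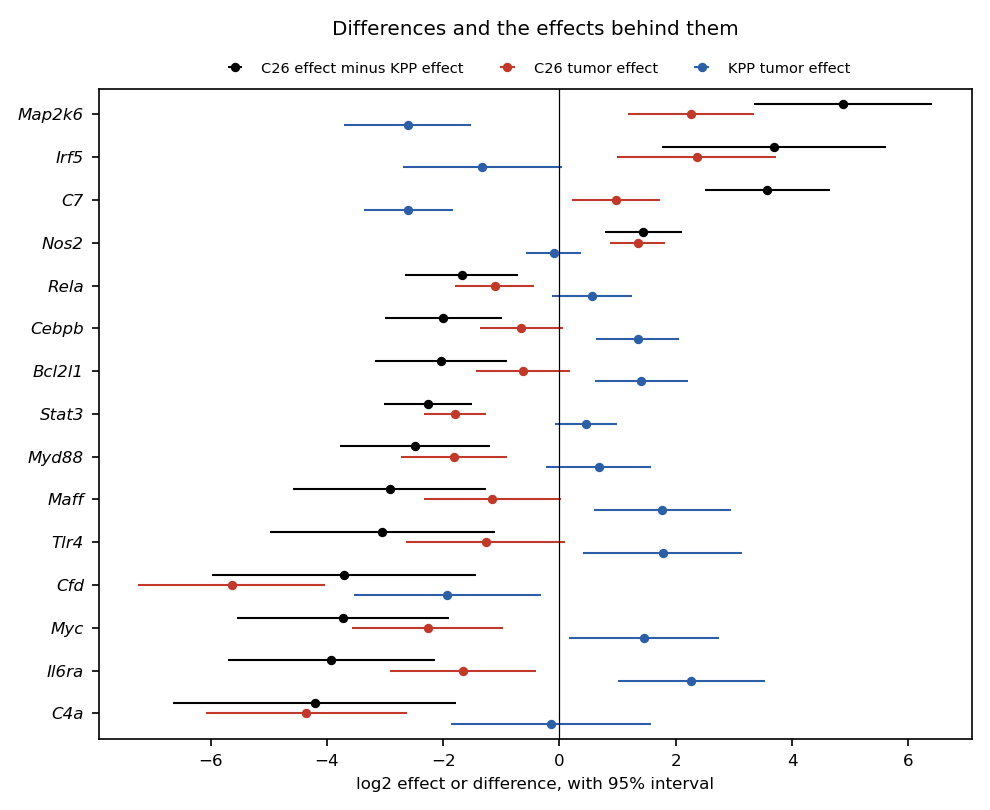
The difference (black), the C26 tumor effect (red) and the KPP tumor effect (blue) of the 15 genes on the log2 scale, with 95% intervals from limma. The intervals of the C26 and KPP effects lie on opposite sides of 0 for Map2k6, C7, Myc and Il6ra, while for C4a and Cfd both effects are negative.

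Complement held 3 called differences among 13 tested genes (20 on the panel), 1 positive and 2 negative, against 11.9% of all genes tested. The same 3 genes were called under each of the 3 other scalings. The list's median was -0.89, and -0.29 without Gapdh and Pgk1, -0.39 with median centring and -0.56 with quantile normalization. C7, a component of the membrane attack complex that fibroblasts also make, was 136, 114.5 and 338 in C26 tumor-bearing samples A, B and C, against 90.1, 96.0 and 79.0 in C26 controls. Values in the KPP model were 76.2, 76.5 and 68.8 in KPP tumor-bearing samples, against 475, 501 and 387 in KPP controls. C26 tumor-bearing sample C was the highest of its group, and even the lowest of the 3 exceeded every C26 control. KPP tumor-bearing samples lay between 68.8 and 76.5, far under the KPP controls. The effects of tumor on C7 were 0.98 in C26 (adjusted p = 0.0629) and -2.60 in KPP (adjusted p = 0.00186), which gave a difference of 3.57 (SE 0.49, 95% interval 2.50 to 4.65, adjusted p = 0.00176). The call held in every other setting and without any 1 sample (3.10 to 3.87).

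C4a, a copy of the complement C4 gene, was 23.2, 36.9 and 109 in C26 tumor-bearing samples A, B and C, against 2057, 787 and 529 in C26 controls. In KPP it was 146, 526 and 237 in KPP tumor-bearing samples, against 754, 157 and 208 in KPP controls. The C26 groups stood apart with no overlap, and the KPP groups overlapped fully. C4a had log2 effects of -4.35 in C26 (adjusted p = 0.00606) and -0.14 in KPP (adjusted p = 0.981), with a difference of -4.21 (SE 1.10, 95% interval -6.64 to -1.77, adjusted p = 0.0297). Probe sequences were not used here, so signal from the close copy C4b is not separated from that of C4a. The call was lost without C26 tumor-bearing sample A or B, KPP control B or C, or KPP tumor-bearing sample B or C (adjusted p 0.0218 to 0.0873, difference -4.89 to -3.65), and also with no filter and with group weights.

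Cfd encodes adipsin, a complement protease made mainly by fat cells and the panel's adipocyte marker. Its signal was 50.5, 47.0 and 87.4 in C26 tumor-bearing samples A, B and C, against 9604, 2003 and 1389.9 in C26 controls. It was 419.9, 921 and 467 in KPP tumor-bearing samples, against 5037, 1201 and 1644 in KPP controls. Tumor-bearing samples were below all controls in both models, and control A was the highest of each model. Log2 tumor effects of Cfd were -5.63 in C26 (adjusted p = 0.00105) and -1.93 in KPP (adjusted p = 0.173), and the difference came to -3.71 (SE 1.03, 95% interval -5.98 to -1.43, adjusted p = 0.0399). Here the sign of the difference means a lower tumor effect in C26, with both effects negative. It held in 5 of 12 runs without 1 sample, being lost without C26 tumor-bearing sample A, B or C, KPP control B or C, or KPP tumor-bearing sample B or C (adjusted p 0.0261 to 0.106, difference -4.32 to -2.87). A pseudocount of 20, no filter and group weights also ended it, and without C26 control A and KPP tumor-bearing sample B together it was -2.51 (adjusted p = 0.063).

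In C26 alone, 7 complement genes were lower with tumor and none higher: C4a, Cfd, C3, C1qa, C1qb, Cfb and C1s. Of all genes tested 15.9% were called lower. C4a, Cfd, C3, C1qa and C1qb stayed called under each of the 3 other scalings. C7 was called higher in C26 under each of them, and Masp1 with median centring and without Gapdh and Pgk1. In KPP alone C7 was the 1 call. Under each of the 3 other scalings C1ra was also called lower in KPP. With median centring and with quantile normalization C3 was called lower there as well, and Masp1 higher. C3, the central component, had effects of -2.43 in C26 and -1.51 in KPP, and Cfb, factor B of the alternative pathway, -2.17 and -1.28; their differences were -0.92 and -0.89 and did not pass. C1ra, a protease of the C1 complex, had a positive difference of 1.01 and Masp1, a lectin pathway protease, -0.22. The 6 fibroblast and connective tissue markers, C7 among them, summed to 708 to 1393 in C26 tumor-bearing samples and 1735 to 5831 in C26 controls, and to 1700 to 1906 in KPP tumor-bearing samples and 3846 to 5494 in KPP controls. The sums were thus lower with tumor in both models without overlap, unlike C7 itself in C26. Most of each sum came from C3 and C1s, so it says little about the other markers. C1ra, C1s and C3 were lower with tumor on average in both models. Masp1 was higher in both, at 80.0, 167 and 97.8 in KPP tumor-bearing samples, against 46.8, 66.5 and 34.8 in KPP controls. The part of cell makeup in the complement differences was not tested.

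Irf5, a transcription factor below Toll-like receptors that drives inflammatory cytokines and is high in macrophages, was the 1 call among 10 tested interferon response genes (19 on the panel). Of all genes tested 11.9% were called, so the list is near that share. Its signal was 67.4, 148 and 135 in C26 tumor-bearing samples A, B and C, against 49.0, 13.1 and 13.5 in C26 controls. In KPP muscle the signal was 72.4, 60.8 and 263 in KPP tumor-bearing samples, against 313, 253 and 235 in KPP controls. The C26 groups did not overlap, with 2 of the 3 controls under 20. In KPP sample C lay among the controls and samples A and B far below. For Irf5 the fit gave log2 effects of 2.36 in C26 (adjusted p = 0.0273) and -1.33 in KPP (adjusted p = 0.245) and a difference of 3.69 (SE 0.87, 95% interval 1.76 to 5.62, adjusted p = 0.022). It was lost without C26 tumor-bearing sample B or C, KPP control B or KPP tumor-bearing sample B (adjusted p over the 12 runs 0.00629 to 0.0602, difference 3.30 to 4.34). Irf5 ran against the macrophage marker sum, which was lower in C26 tumor-bearing samples. The list's median was 0.26, and 0.86, 0.75 and 0.62 under the 3 other scalings. Mx1 and Ifit3, interferon-induced antiviral genes, stood at 1.04 and 1.63 without passing, and Ifi27l2a, another interferon-induced gene, at -0.81, being lower with tumor in C26 (-3.25, adjusted p = 0.0171) with an effect of -2.44 in KPP.

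No difference passed in the chemokine list (5 of 19 tested, median -0.24), the MEF2 and muscle list (8 of 9, median 0.03), the TGF-beta and matrix list (7 of 9, median -0.30), the G protein and cytoskeleton list (13 of 14, median -0.25) or the eicosanoid list (3 of 17, median -0.08). Of these the chemokine, TGF-beta, G protein and eicosanoid medians turned positive under each of the 3 other scalings, and the MEF2 median was 0.65, 0.53 and 0.58. Smad7, which dampens TGF-beta signals, then had a positive called difference under each of the 3, and Ccl11, the eosinophil chemokine eotaxin, with median centring and without Gapdh and Pgk1. Ccl8, a monocyte chemokine, was lower with tumor in C26 (-3.81), with an effect of -1.86 in KPP and a difference of -1.95. Mmp3, a matrix protease, had the fourth lowest difference of all at -3.82, but its SE was 1.51 and it did not pass (adjusted p = 0.147).

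Hspb1, the small heat shock protein Hsp27, had the second lowest difference and did not pass (-4.10, SE 1.52, adjusted p = 0.115). Its signal was 920.3, 1112 and 980.1 in C26 tumor-bearing samples A, B and C, against 1112, 3036 and 9342 in C26 controls. It was 2591, 50741 and 62299 in KPP tumor-bearing samples, against 3738, 3881 and 3534 in KPP controls. The groups overlapped in KPP, where samples B and C exceeded sample A and every control by over 13 times, and C26 control C was the highest of its model. Mef2c_Mm, the probe for the muscle transcription factor Mef2c, leaned positive (1.58, SE 0.48, adjusted p = 0.0563): it was 2513, 2539.8 and 3086 in C26 tumor-bearing samples A, B and C, against 1393, 1920.1 and 662 in C26 controls, and 6479, 4734 and 4861 in KPP tumor-bearing samples, against 7999.6, 6391 and 7040.1 in KPP controls. It was higher with tumor in C26 (1.16, adjusted p = 0.0371), and its difference passed without Gapdh and Pgk1, with median centring and with quantile normalization. Hdac4, a repressor of MEF2 factors, was lower with tumor in C26 (-1.50) and at -0.01 in KPP, with a difference of -1.48 (adjusted p = 0.0719).

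Flt1, a receptor for VEGF and an endothelial marker, was the 1 gene higher with tumor in KPP at the threshold. Its signal was 1838, 1713 and 1426 in KPP tumor-bearing samples, against 930.0, 727 and 963 in KPP controls, with no overlap. In C26 it was 229.7, 259.6 and 196 in C26 tumor-bearing samples A, B and C, against 203, 212 and 239 in C26 controls, with overlap. The effects were 0.06 in C26 and 0.93 in KPP (adjusted p = 0.032), and the difference did not pass (-0.87, SE 0.28, adjusted p = 0.0648). The call of Flt1 in KPP was lost without Gapdh and Pgk1 and kept with median centring and with quantile normalization. Under each of the latter, 7 genes were called higher with tumor in KPP, Il6ra, Cebpb, Maff, Tlr4 and Masp1 among them. H2-Eb1, the tested gene of the antigen presentation list, had a difference of 1.39 (SE 1.07), from -0.36 in C26 and -1.76 in KPP. Between the threshold and an adjusted p of 0.065 stood Ripk2, Mef2c_Mm, Tgfbr1, the signaling receptor of TGF-beta (-1.62, adjusted p = 0.0579), Nfe2l2, Rps6ka5 and Flt1.

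**Figure D4:**
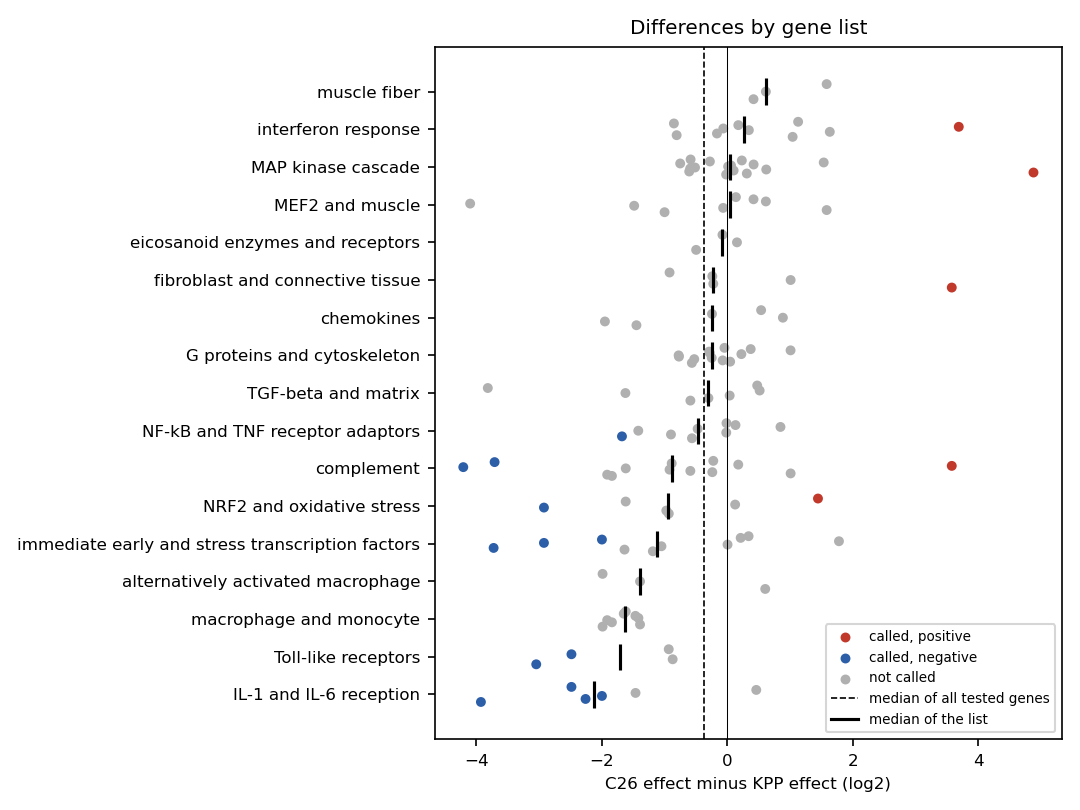
Difference (C26 effect minus KPP effect, log2) of every tested gene in each list with at least 3 tested genes. Red and blue points passed the test, black bars are list medians, and the dashed line is the median of all 126 genes at -0.37. The 4 called genes of the IL-1 and IL-6 reception list are all negative, and the MAP kinase list has 1 called gene, Map2k6.

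The housekeeping genes that set the scale also differed between the models. Gapdh, a glycolytic enzyme, had effects of 0.79 in C26 and -0.27 in KPP, a difference of 1.06, and Pgk1, another glycolytic enzyme, 0.85 and -0.55, a difference of 1.40. Hprt (-1.04), Gusb (-0.82) and Cltc (-0.50) leaned the other way, and Tubb5 stood at -0.07. These genes were not tested.

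The filter left out 122 genes, 31 for low signal in C26 alone, 2 in KPP alone and 89 in both. Just inside it were Oas1a, where the sample ranked 3 had a signal of 20.7 in C26 and 25.4 in KPP, and Limk1 at 22.3 and 60.0. Just outside were Ptger4 at 19.4 and 83.3 and Tradd at 18.1 and 40.3. Nos2, Myd88 and Maff were the 3 tested genes that reached 20 in only 1 group of C26, and no tested gene did so in KPP.

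**Figure D5:**
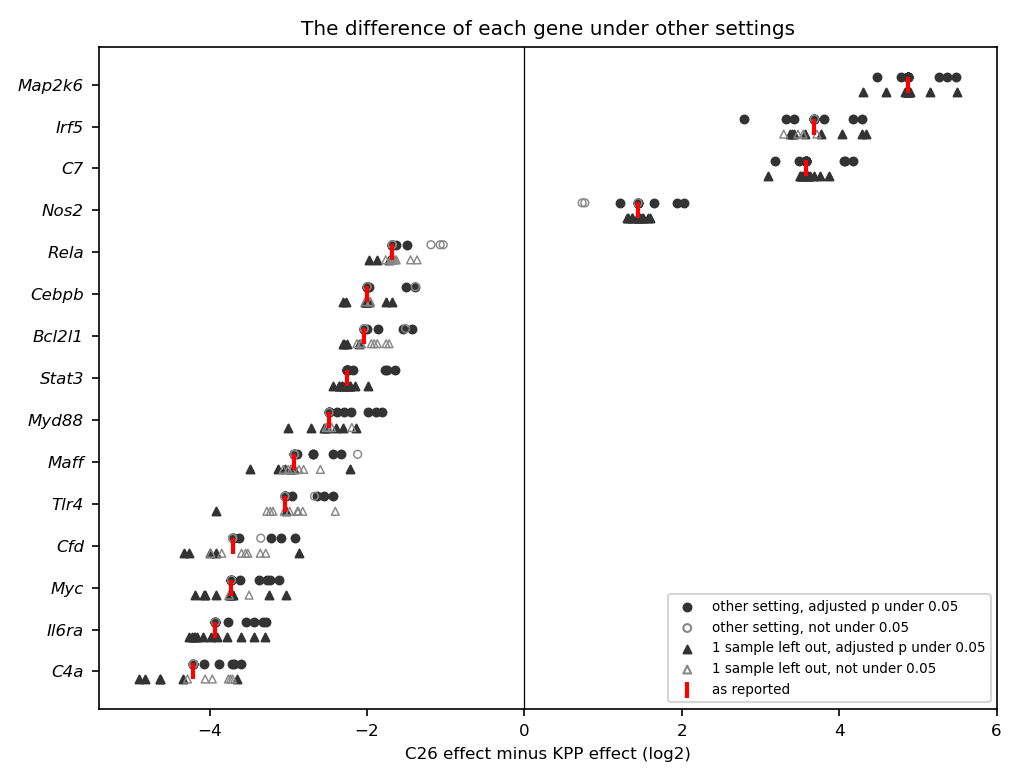
The difference of each of the 15 genes as reported (red bar), under 11 or 12 other settings (circles) and without each sample in turn (triangles). Filled symbols have an adjusted p under 0.05 in limma. No symbol lies on the other side of 0 from its red bar, and for C7, Map2k6 and Stat3 all are filled.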

How the data were processed

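TA muscle RNA of C26 and KPP mice, tumor-bearing and control, was hybridized to the nCounter mouse inflammation panel. The deposited values are a normalized signal per probe, and the authors' steps from counts to signal are not given in the sources. Read from the values, each model was scaled to its 6 housekeeping genes after subtraction of a background per sample, and low values lie on steps of each sample's scale factor (0.602 to 3.224, tolerance 0.1), which gives the counts behind them. The subtraction kept whole counts from being recovered for every gene, so no count test was run. The table has 266 rows: 254 genes, 4 positive and 8 negative controls. The negative controls reached at most 8.81 in C26 and 11.8 in KPP.

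Genes of at least 20 in 3 of 6 samples of both models were kept, and log2(signal + 1) was fitted with limma 3.58.1 in R 4.3.3, with 1 mean per group over the 12 samples (8 residual degrees of freedom), empirical Bayes moderation, and p-values adjusted by Benjamini-Hochberg over 126 genes, two-sided at 0.05. SE and intervals are limma's. A fold change on this scale understates changes of low genes. The fit was tested on simulated data. No 2 samples held identical values. LLC samples were left out of the fit because their values were floored at 20, and enter as an alternative. No scan or cartridge batch is given in the labels. Names follow the deposited table, and 248 of 254 match a RefSeq symbol of GRCm38.p6 and 6 a synonym. That assembly was used for names and start windows, since no build is given for the probes.

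Members, gene lists and tests were chosen with earlier results of these data known. Named are all genes that passed the test of the difference, genes called in both models in opposite directions, list members and housekeeping genes. Bcl2l1 is named by the first of these. Lists were summarised by counts and medians. Alternatives were the pseudocount, the filter, a floor, 3 scalings, an 18-sample fit, 2 variance models, a replicate block and each sample left out. Leaving out 2 libraries at once was added after the data were seen.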

Additional observations from a re-analysis of the deposited data

Results flagged for a closer look

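Each of the 15 genes below was marked because its tumor effect in C26 differed from that in KPP by a test of the difference itself (limma, adjusted p under 0.05). Higher in C26 than in KPP, relative to controls, were Map2k6 (4.88, log2), the activator of p38, Irf5 (3.69), C7 (3.57) and Nos2 (1.44). Effects in C26 were below those in KPP for C4a (-4.21), Il6ra (-3.93), Myc (-3.72), Cfd (-3.71), Tlr4 (-3.04), Maff (-2.92), Myd88 (-2.48), Stat3 (-2.26), Bcl2l1 (-2.04), Cebpb (-2.00) and Rela (-1.68). For Map2k6, C7, Il6ra, Myc, Cebpb, Myd88, Bcl2l1 and Maff, all 3 tumor-bearing samples lay on one side of their controls in C26 and on the other side in KPP. Of all 126 genes 10 did so (7.94%). The test used the same values, so this adds no evidence, and for Myd88 and Maff the filter fixed the C26 side. Groups of 3 samples are too small for a check of single outlying samples.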

How the results depend on the processing

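None of the 15 called differences changed sign in 12 other settings, 12 runs without 1 sample and 2 runs without a pair of libraries, and C7, Map2k6 and Stat3 passed in all of them. Against 15 called differences, 24 passed without Gapdh and Pgk1 as housekeeping genes, 24 with all 18 samples in the fit, 23 without C26 control A and KPP tumor-bearing sample B, 8 without C26 control C and KPP tumor-bearing sample B, and 5 to 32 without 1 sample. Against 26 called C26 effects, 44 passed with 18 samples, 41 without C26 control A and KPP tumor-bearing sample B, and 10 to 32 without 1 sample. Against 3 called KPP effects, 7 passed with pseudocounts of 5 and of 20, with values under 20 set to 20, with group weights and without C26 control C and KPP tumor-bearing sample B, 6 with a minimum of 50 and without Gapdh and Pgk1, 12 with median centring and with quantile normalization, 13 with 18 samples, and 1 to 13 without 1 sample. Of all panel genes without a filter 120 had opposite signs in the 2 models, against 65 of 126. The count of 65 ranged from 56 to 73 without 1 sample. The cause of these moves was not tested, except that fewer samples or genes enter some runs. Nos2, Myd88 and Maff were not tested at a minimum of 50, which they do not reach.

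The letters A to C are shared by tumor-bearing and control samples, but the labels do not say that they pair them, and deviations from group means of same-lettered samples correlated at 0.08, 0.18 and -0.34 in C26 and -0.20, -0.14 and -0.13 in KPP. With the letter as a replicate block 3 differences passed (C7, Map2k6 and Stat3), 10 C26 effects and 1 KPP effect. Counts behind C26 tumor-bearing samples were the lowest, and 3 samples per group limit every value.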

Other observations

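The third model of the series, Lewis lung carcinoma (LLC), enters the text above only through the fit of all 18 samples. LLC controls were C57/B6 mice, the strain of the KPP model, so strain and tumor cannot be told apart where LLC resembles KPP. The tumor effects of the 15 genes there, tumor-bearing minus control with 3 samples each and no test, were mostly smaller. Il6ra stood at 0.73, Cebpb at 0.73, Myc at 0.86, Stat3 at 0.25, Tlr4 at 0.36 and Rela at 0.19, the sign they had in KPP. Map2k6 stood at -0.61 and Irf5 at -1.25, again with the KPP sign, while C7 was at 0.05. C4a stood at 0.53 and Cfd at -0.03. C4a thus had the sign of neither C26 nor KPP. Bcl2l1 stood at 0.37 and Maff at 0.16, with the KPP sign, and Myd88 at -0.002. These 15 genes were picked for a gap between C26 and KPP, and LLC effects of the other tested genes were not compared. How near LLC lies to either model was therefore not assessed. Nos2 was at the LLC floor of 20 in 4 of 6 LLC samples, so its effect there is bounded by the floor.

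With no filter, 2 genes outside the 126 passed the test of the difference: Ccr3, an eosinophil chemokine receptor (2.37, adjusted p = 0.0463), and Tbxa2r, the thromboxane receptor (2.62, adjusted p = 0.0463). Ccr3 signal was 5.07, 5.39 and 2.18 in C26 tumor-bearing samples A, B and C, against 1.0, 1.0 and 1.0 in C26 controls, and 1.27, 1.73 and 1.11 in KPP tumor-bearing samples, against 1.98, 3.22 and 8.33 in KPP controls. Tbxa2r signal was 3.77, 6.51 and 2.48 in C26 tumor-bearing samples A, B and C, against 1.0, 1.0 and 1.0 in C26 controls, and 1.27, 3.54 and 1.11 in KPP tumor-bearing samples, against 10.8, 3.22 and 5.59 in KPP controls. All these values lie far below 20, and in C26 the controls of both genes are at the value of 1 at which the lowest genes sit.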
